A study of Mus musculus with 24 samples.

Results

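The effect of KA on gene expression was compared between neurons and glia of the same hippocampi. For each gene, the neuron minus glia difference in log2 expression was taken within each pool of hippocampi, and the differences of 3 KA pools were set against those of 3 SH pools. The 12 mRNAseq libraries entered, of 24 libraries in the study, and 37598 of 53379 genes were tested. Adult male C57/BL6N mice, 8 weeks old at arrival and acclimatized for 4 weeks, were injected with kainic acid (KA) or saline (SH) into the deep cortex beside the hippocampus, and right hippocampi were taken at 24 hours. In KA mice this was 24 hours after status epilepticus. The groups shared strain, sex and age. Each treatment had 8 mice in 3 pools, with 4 mice in pool 1 and 2 mice in pools 2 and 3. Nuclei were sorted by the neuronal nuclear protein NeuN, and each pool gave 1 library of NeuN+ nuclei (neurons) and 1 of NeuN- nuclei (glia, together with any other NeuN- cell of the tissue). The 4 groups were thus KA neurons, SH neurons, KA glia and SH glia, with 3 libraries each.

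Kainic acid activates glutamate receptors of the kainate and AMPA types and drives neurons into prolonged firing. Firing switches on immediate early genes, whose products are transcription factors and synaptic regulators, and later genes for neuropeptides, chaperones and matrix proteins. Microglia and astrocytes answer with cytokines, interferon-stimulated genes and the programme called reactive gliosis, while genes of their resting functions are often turned down.

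The libraries held 7769400 to 40364768 counts. Expression is given as CPM, read counts scaled to a common library size, after TMM normalization, in the order of pools 1, 2 and 3. SH glia of pool 1 and KA glia of pool 2 were amplified from 0.05 ng RNA with 15 PCR cycles, and the others from 1 ng with 10 cycles. The libraries of replicate 3 had a count for 36165 to 42160 genes and the others for 40660 to 47748. In every pool the median of 15 neuronal markers was higher in the NeuN+ library, by 1.67 to 3.02 on the log2 scale, and the medians of astrocyte, microglia, oligodendrocyte and oligodendrocyte precursor (OPC) markers were lower, by at least 1.38. The labels of the fractions thus matched these markers. Medians of endothelial markers differed less between the fractions, with neuron minus glia differences of -1.01 to 0.01. In sorted but pooled nuclei, fewer cells of a type and less RNA per cell cannot be told apart.

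The effect of KA differed between neurons and glia for 177 genes (edgeR quasi-likelihood test with a block per pool, FDR below 0.25), where p values measure the spread between pools of mice. For 118 genes the neuron minus glia difference was higher in KA than in SH pools, here called a shift towards neurons. For 59 genes it was lower, a shift towards glia. These are 0.314% and 0.157% of the genes tested. The size of the shift, the log2 fold change in neurons minus that in glia, had a median of 1.66 (1.19 to 4.21) in the first set and -2.03 (-8.22 to -1.25) in the second, beside -0.05 over all genes tested. At an FDR of 0.05, 22 and 11 genes were left. With library sizes in place of TMM factors, 134 and 105 genes passed, so that shifts towards neurons made up 56.1% of the calls in place of 66.7%. The excess of calls towards neurons was not seen without the pools that hold a low-input library (51 and 53 genes, 49.0% towards neurons) or without KA pool 2 (33 and 35 genes, 48.5%). It was nearly absent without SH pool 1, which also holds a low-input library (65 and 63 genes, 50.8%). Of the 177 genes, 46 of 118 and 40 of 59 kept their call without the low-input pools. A replicate block across treatments, beside the block per pool, gave 871 and 571 genes, among them all 177 genes. The labels do not give this pairing of KA and SH pools, which was read from the data. Its added terms leave little to estimate the spread between pools, so these counts are no independent support. Without any block, 0 genes passed in either direction, with 286 and 216 genes at an unadjusted p below 0.05.

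**Figure D1:**
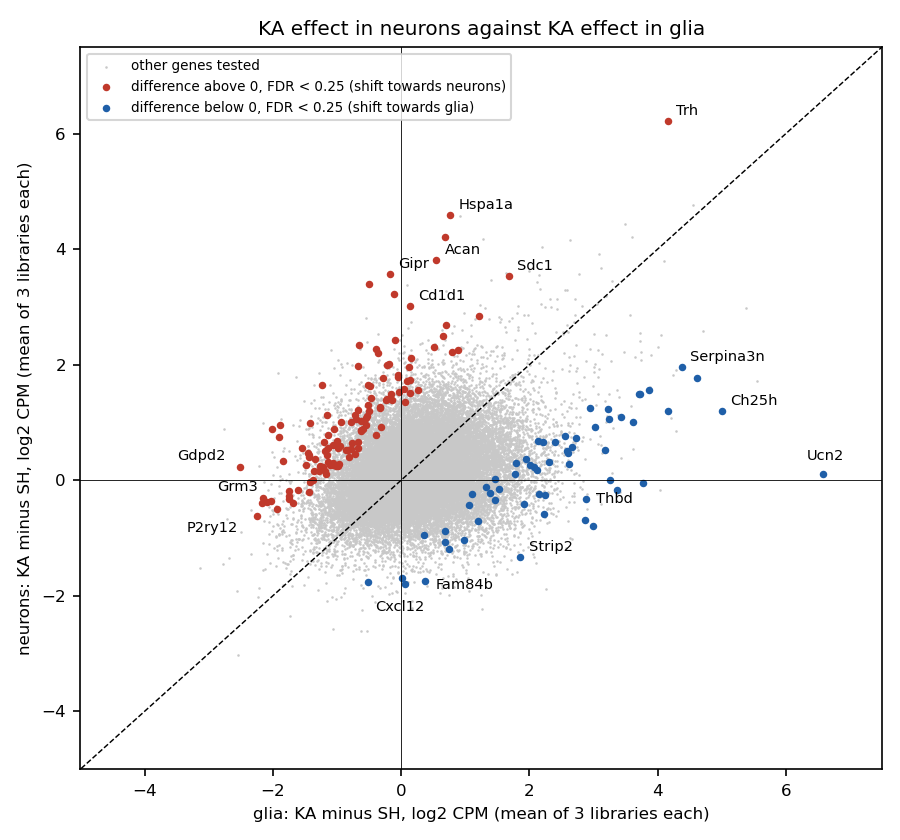
Change from SH to KA in neurons (vertical axis) against the change in glia (horizontal axis), each as the difference of mean log2 CPM of 3 KA and 3 SH libraries, for the 37598 genes tested; the dashed line marks equal changes. The 118 genes with a shift towards neurons (red) lie above the line on both sides of 0 for glia, and the 59 genes with a shift towards glia (blue) lie below it, most of them at positive changes in glia.

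Shifts towards neurons arose in more than 1 way. Of the 118 genes, 54 had all 3 KA neuron libraries above all 3 SH neuron libraries, against 5.27% of all genes tested, and 0 had them below, against 4.45%. In glia, 48 had the KA libraries below the SH libraries without overlap, against 3% of all genes, and 3 had them above, against 3.61%. The test used these same libraries, so these counts describe the calls. An upward separation in neurons alone was seen for 43 genes, a downward separation in glia alone for 40, and 8 genes had both. Over all genes tested, 1641, 792 and 21 genes had these patterns. For 3 genes, Trh, Sdc1 and Pde6b, the KA libraries were higher in both cell types, and 24 genes had overlapping libraries in each cell type. Pde6b, a phosphodiesterase subunit, lost its call in every fit without 1 pool. The median change was 0.91 on the log2 scale in neurons and -0.73 in glia. In SH pools, 100 of the 118 genes (84.7%) had a higher mean level in glia than in neurons, as did 44.1% of all genes tested. In KA pools, 47 of the 118 still had.

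Shifts towards glia were mostly increases in glia. Of the 59 genes, 49 had all KA glia libraries above all SH glia libraries, against 3.61% of all genes tested, and 0 had them below, against 3%. In neurons, 11 had the KA libraries below the SH libraries, against 4.45%, and 9 had them above, against 5.27%. These counts too describe the calls, since the test used the same libraries. An upward separation in glia alone was seen for 36 genes, an upward separation in both cell types for 9, and a downward separation in neurons alone for 7. Over all 37598 genes tested, 1012, 320 and 1334 genes had these patterns. The median change was 2.24 in glia and 0.11 in neurons.

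The smallest p value of a shift towards neurons was that of Cd1d1 (ENSMUSG00000028076, GRCm38 chromosome 3 from 86995834 to 86999441), which encodes an MHC-like protein that presents lipids to natural killer T cells. It had 6.84, 4.26 and 9.06 CPM in SH neurons and 24.4, 64.3 and 92.0 CPM in KA neurons. In glia it had 11.3, 5.6 and 12.8 CPM in SH and 5.21, 9.64 and 21.3 CPM in KA. All KA neuron libraries were above all SH neuron libraries, whereas the glia libraries overlapped. The shift was 2.90 (SE 0.32, edgeR FDR 0.007). The neighbouring paralog Cd1d2 shifted too (4.21, SE 0.91, FDR 0.14), at 4.95, 4.10 and 6.85 CPM in KA neurons and at most 0.726 CPM in SH neurons. Reads of the 2 similar genes may be split by the counting, and Cd1d2 kept its call in 2 of the 6 fits without 1 pool (lost without SH pool 1 or 3 and KA pool 2 or 3).

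Pcdh11x (ENSMUSG00000034755, chromosome X from 120290259 to 120910619), a protocadherin of cell adhesion, was a gene of the glial fraction in SH mice, with 123, 124 and 188 CPM in SH glia and 31.4, 32.8 and 40.1 CPM in SH neurons. KA neurons had 100.1, 194 and 242 CPM and KA glia 75.1, 91.1 and 184 CPM, so that in each KA pool the neurons were above the glia. The shift was 2.67 (SE 0.31, FDR 0.007). Gipr (ENSMUSG00000030406, chromosome 7 from 19156061 to 19166127), the receptor of the gut hormone GIP, showed the same order. It had 5.93, 7.29 and 10.8 CPM in SH neurons, 51.1, 72.7 and 215 CPM in KA neurons, 41.5, 14 and 81.5 CPM in SH glia and 18.4, 22.5 and 80.2 CPM in KA glia (shift 3.77, SE 0.44, FDR 0.007). Its glia libraries overlapped between the treatments. Ptgs1 (ENSMUSG00000047250), the cyclooxygenase COX-1, had 7.32, 6.53 and 11.9 CPM in SH neurons and 21.0, 30.6 and 57.7 CPM in KA neurons. It stayed higher in glia in every pool, at 62.9 to 149.6 CPM in SH and 43.5 to 149 CPM in KA (shift 2.23, SE 0.28, FDR 0.0084). Plpp4, a phospholipid phosphatase, shifted by 2.54 (SE 0.33, FDR 0.0084), from 3.79 to 6.30 CPM in SH neurons to 18.3 to 49.8 CPM in KA neurons.

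**Figure D2:**
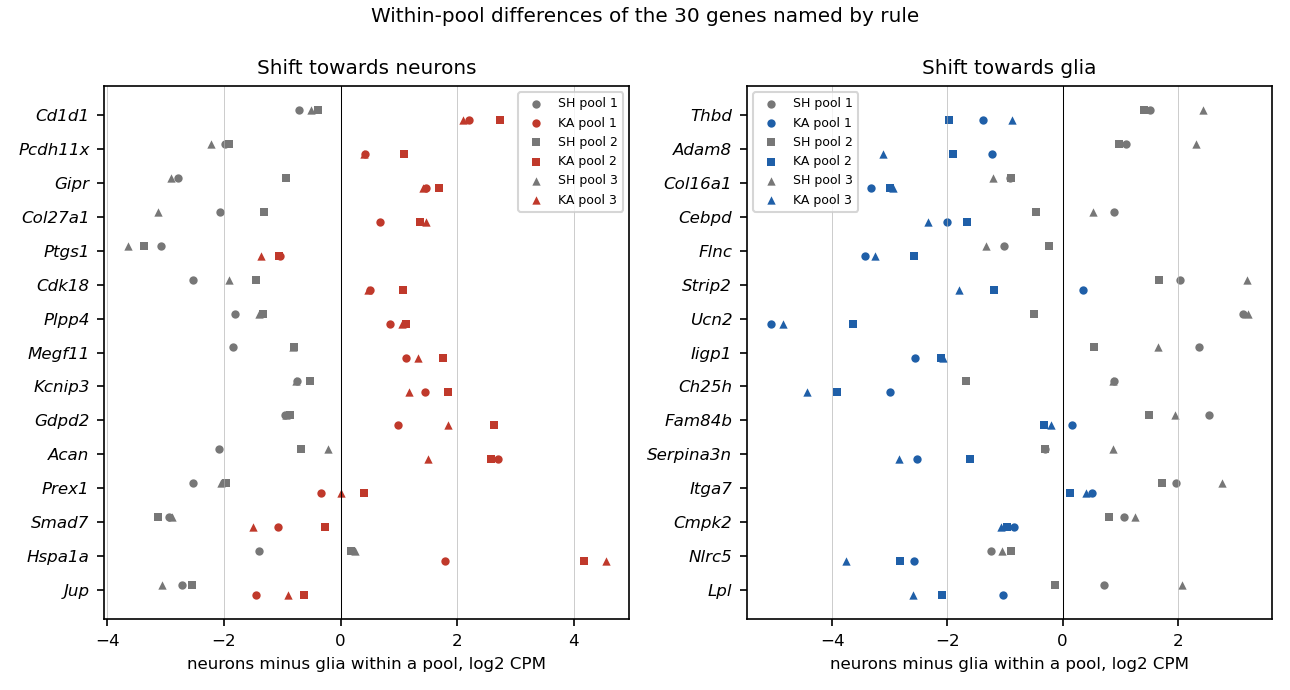
Neuron minus glia difference in log2 CPM within each SH pool (grey) and KA pool (coloured; circle, square and triangle for pools 1, 2 and 3) for the 15 genes with the smallest p in each direction. The KA pools do not overlap the SH pools for any of these genes, which the choice of the genes required; 10 of the 15 genes shifted towards neurons, such as Pcdh11x and Gipr, pass from below 0 in every SH pool to above 0 in every KA pool.

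Matrix genes were among the strongest shifts towards neurons. Acan (ENSMUSG00000030607, chromosome 7 from 79053483 to 79115099) encodes aggrecan, a proteoglycan of the perineuronal nets that wrap some neurons. It had 2.78, 7.71 and 6.45 CPM in SH neurons and 68.1, 89.6 and 65.5 CPM in KA neurons, beside 7.53 to 12.5 CPM in SH glia and 10.4 to 23.1 CPM in KA glia (shift 3.22, SE 0.47, FDR 0.0178). The lowest KA neuron library was thus above every other library of the study. Col27a1 (ENSMUSG00000045672), a fibrillar collagen, had 15.3 to 23.9 CPM in SH neurons and 88.3, 186 and 302 CPM in KA neurons, with overlapping glia libraries (shift 3.35, SE 0.42, FDR 0.0084). Sdc1, the cell surface proteoglycan syndecan-1, was higher in KA in both cell types, at 21.5, 31.1 and 47.3 CPM in KA neurons and 12.5, 18 and 23.6 CPM in KA glia against at most 3.96 CPM in SH neurons and 6.18 CPM in SH glia (shift 1.86, SE 0.36, FDR 0.0845). Its call was lost without SH pool 1 or without any 1 of the 3 KA pools, with shifts of 1.5 to 2.01. Fn1 (fibronectin) and Ecm1, an extracellular matrix glycoprotein, shifted towards glia. Of 18 matrix genes listed, 3 shifted towards neurons and 2 towards glia, with a median of 0.11 that turned to -0.01 with library sizes only.

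Cdk18, a cyclin-dependent kinase, had 29.1, 31.5 and 70.9 CPM in SH neurons and 85.0, 171 and 273 CPM in KA neurons, while it had 86.6 to 267 CPM in SH glia and 59.7 to 198 CPM in KA glia (shift 2.65, SE 0.34, FDR 0.0084). Kcnip3, which encodes the calcium-binding potassium channel partner and transcriptional repressor DREAM, had 42.2 to 78.4 CPM in SH neurons and 109 to 243 CPM in KA neurons (shift 2.16, SE 0.29, FDR 0.00969). Megf11, a transmembrane protein with EGF-like repeats, had 24.0 to 50.9 CPM in SH neurons and 114 to 220.2 CPM in KA neurons (shift 2.56, SE 0.34, FDR 0.0092). In all 3 genes the glia libraries of the treatments overlapped. Prex1, an activator of the small GTPase Rac, went from 28.0, 53.7 and 87.0 CPM in SH neurons to 118, 216 and 341 CPM in KA neurons (shift 2.20, SE 0.32, FDR 0.0181), and Smad7, an inhibitor of TGF-beta signalling, from 9.93 to 24.9 CPM to 44.2 to 60.4 CPM (shift 2.04, SE 0.33, FDR 0.0391). The call was lost for Kcnip3 without KA pool 1 (shift 2.16, FDR 0.267), for Prex1 without KA pool 2 (2.12, FDR 0.316) and for Smad7 without KA pool 1 (2.08, FDR 0.318) or KA pool 2 (1.81, FDR 0.601).

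Of 21 activity-regulated synaptic effector genes, Arc and Rgs2 shifted towards neurons and 0 towards glia, and 19 had a shift above 0, with a median of 0.74. Beside them, 12 of 15 neuronal markers had a shift above 0, with a median of 0.36 and 0 calls. Without the low-input pools the medians were 0.78 for the effectors and 0.76 for the neuronal markers, and the part of the neuronal markers in the shift of the effectors was not tested. Arc (ENSMUSG00000022602, chromosome 15 from 74669083 to 74672570), which controls the removal of AMPA receptors from synapses, had 137, 91.9 and 186 CPM in SH neurons and 530.0, 753 and 1042 CPM in KA neurons. In glia it had 52.5, 75.1 and 88.4 CPM in SH and 67.0, 104 and 194 CPM in KA, which overlap (shift 1.84, SE 0.36, FDR 0.0845). Rgs2, a regulator of G protein signalling, had 20.4 to 41.3 CPM in SH neurons and 53.1 to 142 CPM in KA neurons (shift 1.57, SE 0.35, FDR 0.155). Without 1 pool, the call of Arc was lost in 4 of 6 fits (without SH pool 2 or 3 and KA pool 1 or 2, with shifts of 1.54 to 1.93) and that of Rgs2 in 5 of 6 (all but the fit without SH pool 1, with shifts of 1.34 to 1.62). Among effectors that missed the threshold, Sik1, a kinase that restrains CREB coactivators, had a shift of 1.71 (FDR 0.295), Pim1, another kinase, 1.71 (FDR 0.581) and Rgs4 1.11 (FDR 0.337).

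The genes of immediate early transcription factors themselves had a median shift of 0.25, with 14 of 20 above 0. This median ranged from -0.17 to 0.69 over the alternative runs. Their median change was 1.82 in neurons and 1.94 in glia, and 1 of 20, Nr4a1, passed the test. Nr4a1 (ENSMUSG00000023034, chromosome 15 from 101254269 to 101274795), an orphan nuclear receptor, had 50.6, 34.7 and 74.0 CPM in SH neurons and 158, 154 and 190.4 CPM in KA neurons, with 25.7 to 43.7 CPM in SH glia and 26.0 to 43.7 CPM in KA glia (shift 1.63, SE 0.32, FDR 0.0918). Its call was lost without SH pool 3 (1.73, FDR 0.253), KA pool 1 (1.79, FDR 0.592) or KA pool 2 (1.57, FDR 1). Fos had 12 to 23.2 CPM in SH neurons and 89.9 to 192 CPM in KA neurons, and 6.07 to 50.2 CPM in SH glia and 88.3 to 217 CPM in KA glia, with a shift of -0.05 (SE 0.66). The 250 bases before the RefSeq start of Nr4a1 (chr15:101266596-101266845, plus strand) are shown because they hold 4 copies of TGCGTCA (capitals), a variant of the cAMP response element through which activity reaches the gene. The letters were chosen after the window was seen, and 2.57% of the promoter windows of tested genes hold them on either strand.
Nr4a1: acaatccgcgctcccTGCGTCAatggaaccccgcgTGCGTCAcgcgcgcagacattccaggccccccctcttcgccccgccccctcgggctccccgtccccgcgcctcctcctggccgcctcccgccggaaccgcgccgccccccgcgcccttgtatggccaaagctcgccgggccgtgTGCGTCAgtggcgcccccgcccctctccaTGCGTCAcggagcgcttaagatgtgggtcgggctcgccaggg

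The inducible HSP70 chaperones had large shifts towards neurons. Hspa1a (ENSMUSG00000091971, chromosome 17 from 34969190 to 34972156) had 4.78, 5.69 and 7.67 CPM in SH neurons and 44.5, 82.4 and 838 CPM in KA neurons. In glia it had 12.7, 5.01 and 6.45 CPM in SH and 12.8, 4.47 and 35.8 CPM in KA (shift 3.88, SE 0.64, FDR 0.0429). KA neurons of pool 3 were far above the other pools, yet without KA pool 3 the call was kept. Hspa1b had 17.4 to 22.0 CPM in SH neurons and 167, 165 and 1621 CPM in KA neurons (shift 3.55, SE 0.65, FDR 0.0588). Without SH pool 1 its shift was 2.88 (FDR 0.388) and without both pools with a low-input library 2.87 (FDR 0.268). The 2 genes are near-identical copies, so that the split of reads between them is uncertain, and 19% of the exonic bases of Hspa1a are shared with Gm20481 on the opposite strand. Of 14 heat shock genes these 2 passed the test, with a list median of 0.22 that turned to -0.02 without the low-input pools. The 250 bases before their RefSeq starts, both on the minus strand of chromosome 17 (chr17:34972157-34972406 for Hspa1a and chr17:34959239-34959488 for Hspa1b), show how alike the copies are, with 247 of 250 bases identical (98.8%) at the same positions. Capitals mark GAANNTTC, the facing units of a heat shock element, which 7.28% of promoter windows hold.
Hspa1a: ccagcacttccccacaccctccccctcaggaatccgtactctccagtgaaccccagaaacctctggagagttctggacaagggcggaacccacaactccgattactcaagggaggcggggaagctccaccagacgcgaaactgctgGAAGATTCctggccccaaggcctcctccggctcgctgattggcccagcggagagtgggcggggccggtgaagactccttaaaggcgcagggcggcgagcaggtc
Hspa1b: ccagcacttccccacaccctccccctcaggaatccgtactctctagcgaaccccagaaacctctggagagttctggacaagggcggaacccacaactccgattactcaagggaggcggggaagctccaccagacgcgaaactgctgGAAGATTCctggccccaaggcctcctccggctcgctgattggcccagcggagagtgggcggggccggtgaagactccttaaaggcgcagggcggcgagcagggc

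Neuropeptide genes shifted in both directions. Trh, which encodes thyrotropin-releasing hormone, had 0.545, 1.98 and 0.490 CPM in SH neurons and 49.7, 64.1 and 99.5 CPM in KA neurons, and 0, 2.53 and 1.14 CPM in SH glia and 7.82, 11.2 and 18.9 CPM in KA glia (shift 2.79, SE 0.58, FDR 0.12). It was the only called gene whose KA and SH pool differences overlapped, and it lost its call without SH pool 3 (2.27, FDR 0.539) or KA pool 3 (2.84, FDR 0.304). The call was also lost with limma on the within-pool differences (2.06, FDR 0.612) and with library sizes only (2.67, FDR 0.281). Ucn2, which encodes the stress peptide urocortin 2, had 8.78, 7.95 and 20.2 CPM in KA glia. SH glia held 0, 2 and 0 counts of it, and neurons 1 to 19 counts per library in either treatment. Its fitted shift of -8.22 (SE 1.38, FDR 0.0479) rests on these few counts, depends on the prior count and is no bound. The other 18 listed neuropeptide genes did not pass. Among them Penk (enkephalin) had a shift of 1.13 (p 0.0144 unadjusted) and Tac1 (substance P) 1.36 (p 0.0287 unadjusted).

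**Figure D3:**
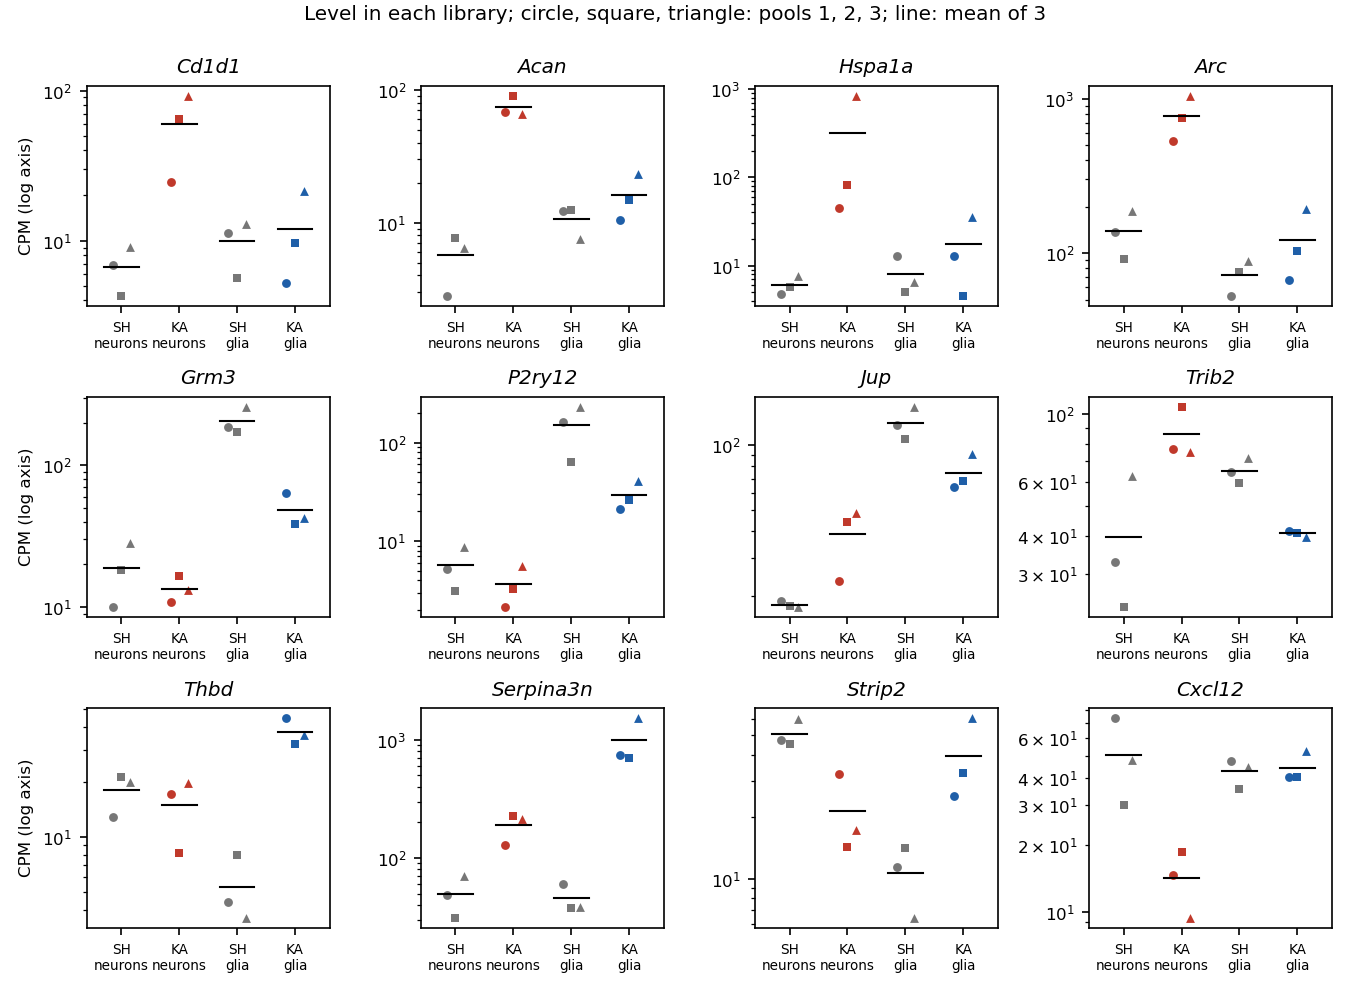
CPM in each of the 12 libraries for 12 genes discussed in the text, on log axes that differ between panels, with pools 1, 2 and 3 as circle, square and triangle, and the mean of 3 libraries as a line. In Cd1d1, Acan, Hspa1a and Arc the KA neurons stand above the SH neurons while the glia overlap; in Grm3 and P2ry12 the KA glia stand below the SH glia; in Thbd and Serpina3n the KA glia stand above the SH glia.

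The other main source of shifts towards neurons was a lower level in KA glia. Gdpd2, a glycerophosphodiester phosphodiesterase, had 27.9, 15.6 and 51.2 CPM in SH glia and 4.69, 3.94 and 6.18 CPM in KA glia, with overlapping neuron libraries (shift 2.80, SE 0.40, FDR 0.0178). Of its exonic bases 17.3% are shared with Gm14866 on the other strand. P2ry12 (ENSMUSG00000036353, chromosome 3 from 59216272 to 59262871), the purinergic receptor of resting microglia, had 163, 63.6 and 229 CPM in SH glia and 21.1, 26.2 and 40.4 CPM in KA glia, and 2.14 to 8.74 CPM in neurons (shift 1.65, SE 0.30, FDR 0.0588). Gpr34, another receptor of resting microglia, had 82.7, 22.7 and 97.8 CPM in SH glia and 10.9, 21.1 and 20.9 CPM in KA glia (shift 1.48, SE 0.32, FDR 0.14). Both microglial genes were thus lower in every KA glia library, but Gpr34 of SH pool 2 came close to the KA libraries. Calls were lost for P2ry12 without SH pool 3, KA pool 1 or KA pool 2 (1.63 to 1.72), and for Gpr34 in all fits but that without SH pool 2 (1.26 to 1.65). The 12 homeostatic microglia genes had a median shift of 0.63, with 2 calls towards neurons and 0 towards glia, and 10 of 12 had shifts above 0. Csf1r, the receptor of the microglial growth factor CSF1, was just outside the threshold (1.26, FDR 0.259).

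Genes of other glial cells were in the same group. Grm3 (ENSMUSG00000003974, chromosome 5 from 9485541 to 9725170), a metabotropic glutamate receptor with high expression in astrocytes, had 185, 172 and 257 CPM in SH glia and 63.6, 38.8 and 42.8 CPM in KA glia. In neurons it had 9.99 to 28.2 CPM in SH and 10.9 to 16.5 CPM in KA (shift 1.73, SE 0.38, FDR 0.148), so the shift is towards neurons although glia remained above neurons in every pool. Lpar1, a receptor of lysophosphatidic acid, had 213, 114 and 281 CPM in SH glia and 77.0, 79.7 and 102 CPM in KA glia (shift 2.24, SE 0.41, FDR 0.0588), and this call was kept without any 1 pool. Pla2g7, the platelet-activating factor acetylhydrolase, had 230.3, 91.5 and 154 CPM in SH glia and 68.8, 22.2 and 32.0 CPM in KA glia (shift 2.92, SE 0.50, FDR 0.0485, lost without SH pool 1). Other genes with lower KA glia libraries were the fibroblast growth factor gene Fgf1, the Hedgehog-binding protein gene Hhip, the pyruvate carboxylase gene Pcx, the ETS factor gene Etv4 and the G protein subunit gene Gnai1, with shifts between 1.42 and 1.92, each of which lost its call in 2 to 4 of the 6 fits without 1 pool. Of 7 metabotropic glutamate receptor genes, Grm3 alone passed; its call was lost without SH pool 1 (1.29), KA pool 1 (2.05), KA pool 2 (1.53) or KA pool 3 (1.68), and without the low-input pools (1.14, FDR 0.801). Without those pools the calls of Fgf1 (1.42), Hhip (1.44) and Etv4 (1.35) were lost too. So were, among others, those of Gpr34 (1.5), Kcnk1 (1.15), Kcna2 (1.09), Sdc1 (1.69), Adam19 (1.29) and S1pr3 (-1.99). Cd1d2 (3.70), Cd34 (-1.19), Tap1 (-1.26), Chst5 (2.24), Hsd11b1 (1.59) and Bmp2 (1.86) lost theirs as well.

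Markers of glial types moved alongside. None of the 10 astrocyte markers was called, but all 10 had shifts above 0, with a median of 0.95, as did 5 of 5 OPC markers (median 0.88) and 8 of 8 oligodendrocyte markers (median 0.43). These medians depended on the low-input pools: without SH pool 1 they were 0.25 for astrocyte, 0.32 for OPC and -0.09 for oligodendrocyte markers, and without both low-input pools 0.22, 0.12 and -0.35. Of 10 microglia markers, 7 had shifts above 0 and 3 below, with a median of 0.41, and P2ry12 was called. The summed astrocyte markers were at 1913 to 2784 CPM in SH glia and 907 to 1851 CPM in KA glia, and at 207 to 643 CPM in SH neurons and 224 to 537 CPM in KA neurons. The summed OPC markers were at 1435 to 2573 CPM in SH glia and 555 to 872 CPM in KA glia, and the microglial ones at 1050 to 2504 CPM and 797 to 1842 CPM. In these sums the astrocyte and OPC markers of KA and SH glia did not overlap, whereas the microglia markers of glia and the astrocyte and OPC markers of neurons did. No marker of these types was at 0 in any library. In each pair of pools of the same number, the median astrocyte marker was closer to the neuronal level in KA (-3.25, -1.74 and -1.38 on the log2 scale) than in SH (-3.90, -3.27 and -2.15). The labels do not give this pairing, and without it the KA and SH medians overlapped. Endothelial markers had a median shift of -0.37, with 6 of 7 below 0 and 0 called, and it stayed below 0 in every alternative run. Pericyte markers had a median shift of 0.24, with 5 of 5 above 0, which turned to -0.08 without both pools of replicate 3. The part of cell composition, or of RNA carried between the fractions, in the shifts was not tested.

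**Figure D4:**
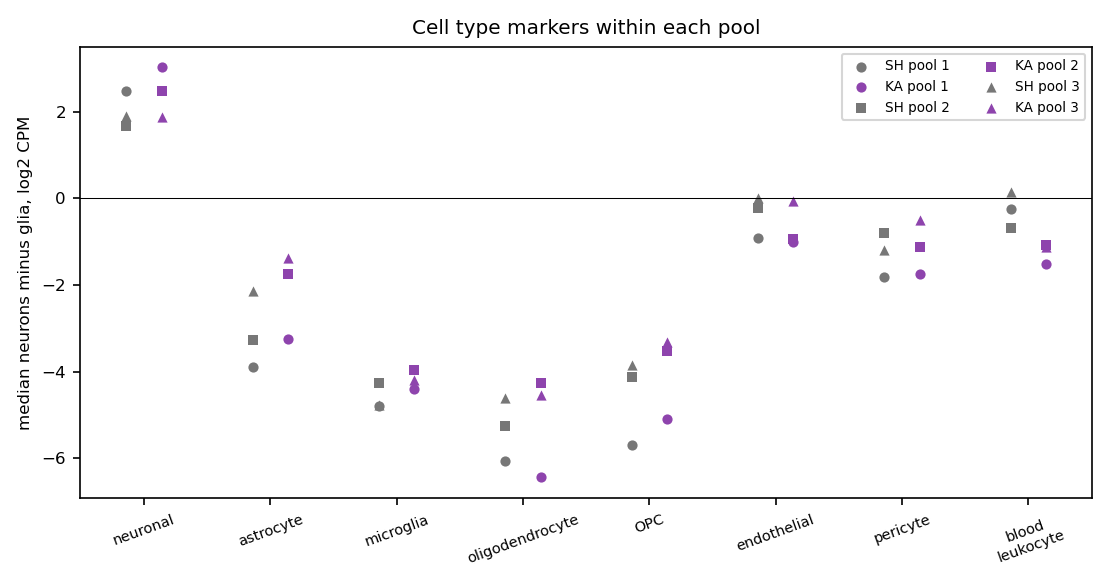
Median neuron minus glia difference in log2 CPM over the markers of each cell type, for the 3 SH pools (grey) and 3 KA pools (purple), with pools 1, 2 and 3 as circle, square and triangle. Neuronal markers lie above 0 in every pool and astrocyte, microglia, oligodendrocyte and OPC markers below 0. The astrocyte medians of the KA pools lie above those of the SH pools of the same number. The labels do not give this pairing, and as groups the KA and SH medians overlap.

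For 8 genes with a shift towards neurons, the 2 cell types separated in opposite directions. Jup, the junction protein plakoglobin, had 18.9, 18.1 and 17.8 CPM in SH neurons and 23.5, 44.3 and 48.7 CPM in KA neurons, but 125, 107 and 150.2 CPM in SH glia and 64.3, 68.3 and 90.7 CPM in KA glia (shift 1.80, SE 0.30, FDR 0.0481, lost without KA pool 1 or 2 at 1.99 and 1.71). Trib2, a pseudokinase, had 32.7, 23.3 and 62.5 CPM in SH neurons and 76.7, 106 and 75.1 CPM in KA neurons, against 59.6 to 71.8 CPM in SH glia and 39.6 to 41.5 CPM in KA glia (shift 1.90, SE 0.33, FDR 0.0491). Abca9, a lipid transporter of the ABC family, had 4.12 to 5.48 CPM in SH neurons and 6.49 to 11.7 CPM in KA neurons, and 37.2 to 107 CPM in SH glia and 11.9 to 17.0 CPM in KA glia (shift 2.88, SE 0.49, FDR 0.0485). Kcnk1, which encodes the potassium channel TWIK-1, had 127 to 149.7 CPM in KA neurons and 22.6 to 45.3 CPM in KA glia, beside 69.9 to 121 CPM and 46.1 to 71.3 CPM in SH (shift 1.33, SE 0.30, FDR 0.168). Across all genes tested, 21 had this pattern. Calls were lost for Trib2 without KA pool 1 or 2, and for Kcnk1 without SH pool 2 or 3 or KA pool 1 or 2 (1.17 to 1.44). Of 20 potassium channel genes, Kcnk1 and Kcna2 shifted towards neurons and 0 towards glia, beside 0.314% and 0.157% of all genes tested. In this list 16 genes had a shift above 0, with a median of 0.32, beside 0.36 for the neuronal markers. The list median turned to -0.01 in 1 alternative run. Kcna2 had a shift of 1.35 (SE 0.32, FDR 0.191) with overlapping libraries in each cell type, and kept its call only without KA pool 3.

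Among shifts towards glia, Thbd (ENSMUSG00000074743, chromosome 2 from 148404466 to 148408188), which encodes the anticoagulant receptor thrombomodulin, had the smallest p value. It had 4.42, 7.93 and 3.59 CPM in SH glia and 44.8, 32.1 and 36.4 CPM in KA glia, but 12.8, 21.2 and 19.9 CPM in SH neurons and 17.2, 8.16 and 19.8 CPM in KA neurons (shift -3.22, SE 0.40, FDR 0.0084). In SH pools it was higher in neurons and in KA pools higher in glia. Adam8 (ENSMUSG00000025473, chromosome 7 from 139978932 to 139992562), a membrane metalloprotease of leukocytes and microglia, changed places in the same way, with 12.2, 11.6 and 16.6 CPM in SH glia and 40.7, 85.4 and 269.9 CPM in KA glia (shift -3.58, SE 0.47, FDR 0.0092). Cebpd, an inflammatory transcription factor, had 43.3 to 55.5 CPM in SH glia and 133 to 288 CPM in KA glia, with overlapping neuron libraries (shift -2.33, SE 0.36, FDR 0.0276). Of the exonic bases of Cebpd, 15.0% are shared with Spidr on the other strand. All 3 genes kept their calls without any 1 pool.

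Col16a1, a collagen, had 77.7, 85.9 and 246 CPM in SH glia and 414, 557 and 1539 CPM in KA glia (shift -2.08, SE 0.31, FDR 0.0224). Flnc, the actin crosslinker filamin C, had 6.19 to 19.6 CPM in SH glia and 93.5 to 248 CPM in KA glia (shift -2.25, SE 0.36, FDR 0.0362). Itga7, an integrin receptor of laminin, had 35.7 to 40.7 CPM in SH glia and 80.7 to 158 CPM in KA glia (shift -1.80, SE 0.33, FDR 0.0588). In these genes the KA glia were above the SH glia without overlap and the neurons overlapped. Fn1 was higher in neurons than in glia in each SH pool and had 11.5 to 21.4 CPM in SH glia and 60.1 to 220.2 CPM in KA glia (shift -2.09, SE 0.41, FDR 0.0845). Ecm1 had 7.79 to 9.29 CPM and 33.8 to 67.7 CPM (shift -1.77, SE 0.35, FDR 0.0845). Of 20 extracellular protease and inhibitor genes, Adam8 and Plaur, the urokinase receptor, shifted towards glia and Adam19 towards neurons. Calls were lost for Col16a1 without KA pool 1 (-1.996) or 2 (-2.02), for Flnc without KA pool 1 (-2.10), for Itga7 without SH pool 3 (-1.49), KA pool 1 (-1.92) or 2 (-1.59), for Fn1 without SH pool 3 (-1.65), for Ecm1 without SH pool 3 (-1.62), KA pool 1 (-1.68) or 2 (-1.75), for Plaur in 4 fits (-2.14 to -1.72) and for Adam19 in 4 fits (1.07 to 1.54).

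All 20 interferon-stimulated genes had a shift below 0, with a median of -1.55 beside -0.05 over all genes tested, and 3 passed the test, all towards glia. The median change of the list was 2.63 in glia and 0.80 in neurons. Rsad2 (ENSMUSG00000020641, chromosome 12 from 26442746 to 26456452), which encodes the antiviral enzyme viperin, had 12.2, 5.65 and 1.52 CPM in SH glia and 32.3, 26.9 and 29.0 CPM in KA glia, and 1.71 to 4.84 CPM in neurons of both treatments (shift -2.11, SE 0.45, FDR 0.125). Iigp1, an interferon-inducible GTPase, had 0.724 to 2.39 CPM in SH glia and 9.72 to 11.1 CPM in KA glia (shift -3.83, SE 0.65, FDR 0.0485). Ifit3, which binds foreign RNA with its family, had 1.88 to 5.87 CPM in SH glia and 23.9 to 33.5 CPM in KA glia (shift -2.13, SE 0.49, FDR 0.187). The call of Iigp1 was kept without any 1 pool. Rsad2 lost its call without SH pool 3 (-1.76), KA pool 1 (-2.09) or 2 (-2.03), and Ifit3 kept it only without SH pool 1. Outside the list, the interferon-induced genes Cmpk2, Nlrc5, a regulator of MHC class I genes, and Tap1, a peptide transporter for MHC class I, shifted towards glia as well (Nlrc5 lost its call without KA pool 2, and Tap1 without SH pool 1 or any 1 KA pool). The members that missed the threshold included Bst2 (tetherin), at 1.31 to 4.50 CPM in SH glia and 13.4 to 14.7 CPM in KA glia (-2.25, FDR 0.314), and Oasl2 (-1.88, FDR 0.422).

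The 250 bases before the RefSeq starts of Rsad2 (chr12:26456453-26456702, minus strand) and Ifit3 (chr19:34583279-34583528, plus strand) are shown since, of the 40 genes shifted towards glia with a promoter window, these 2 hold GAAA, any 2 bases and GAAA, the core of the interferon-stimulated response element (ISRE), on either strand. Capitals mark this core, which starts 120 bases before the start of Rsad2 and 156 and 122 bases before that of Ifit3, and TGANTCA, the site of the AP-1 factors, 87 and 56 bases before the starts.
Rsad2: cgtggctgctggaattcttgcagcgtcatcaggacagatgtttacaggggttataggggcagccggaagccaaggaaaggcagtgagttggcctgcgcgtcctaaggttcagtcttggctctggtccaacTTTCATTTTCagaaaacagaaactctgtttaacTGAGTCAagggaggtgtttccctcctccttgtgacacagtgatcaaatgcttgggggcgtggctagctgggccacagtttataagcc
Ifit3: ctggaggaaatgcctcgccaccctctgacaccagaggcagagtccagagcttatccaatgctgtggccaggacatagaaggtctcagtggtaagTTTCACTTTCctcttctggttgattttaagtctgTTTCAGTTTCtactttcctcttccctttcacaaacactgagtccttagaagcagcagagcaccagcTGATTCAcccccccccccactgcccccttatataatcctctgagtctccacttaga
Over the windows of 250 bases before to 50 bases after a start, the ISRE core was in 3.28% of 23139 windows of tested genes, in 3.92% of 51 windows of genes shifted towards glia and in 1.74% of 115 windows of genes shifted towards neurons. The AP-1 site was in 7.10%, 19.6% (10 windows) and 6.09% (7 windows), the cAMP response element TGACGTCA in 2.20%, 3.92% and 1.74%, and TTCNNNGAA, a STAT site, in 7.89%, 9.80% and 5.22%. Windows were found for 85 of the 118 and 40 of the 59 genes. These counts describe letters in windows and were not tested.

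Cytokine and reactive astrocyte genes leaned towards glia, with positive median changes in both cell types (1.16 in neurons and 2.37 in glia for cytokines, 2.05 and 2.92 for astrocyte genes). Of 20 genes for cytokines, chemokines and their STAT3 feedback, Ccl2, Bcl3 and Cxcl12 shifted towards glia, 15 of 20 had a shift below 0 and the median was -1.002. Ccl2, a chemokine that attracts monocytes, had 5.63, 7.4 and 1.52 CPM in SH glia and 42.9, 29.2 and 101 CPM in KA glia, and 1.59 to 3.33 CPM in SH neurons and 4.16 to 4.29 CPM in KA neurons (shift -2.61, SE 0.53, FDR 0.0988). Bcl3, a nuclear partner of NF-kappaB, had 3.23 to 10.1 CPM in SH glia and 51.7 to 177 CPM in KA glia (shift -2.18, SE 0.43, FDR 0.0837). Cxcl12 went another way, since it was lower in KA neurons and overlapped in glia, as described with the neuronal decreases. Of 18 reactive astrocyte genes, Serpina3n and S1pr3 passed and 16 had a shift below 0 (median -1.01). Serpina3n (ENSMUSG00000021091, chromosome 12 from 104406729 to 104414329), a protease inhibitor of reactive astrocytes, had 60.1, 38.0 and 38.2 CPM in SH glia and 744, 698 and 1530.2 CPM in KA glia, and 30.9 to 70.3 CPM in SH neurons and 129 to 228 CPM in KA neurons (shift -2.42, SE 0.43, FDR 0.0557). It was thus higher in KA in both cell types without overlap. Calls were lost for Ccl2 without SH pool 3 (-2.14) or KA pool 3 (-2.10), for Bcl3 without KA pool 1 (-1.91) or 3 (-2.08), for Serpina3n without SH pool 3 (-2.02) or KA pool 1 (-2.35) and for S1pr3 in 4 fits (-2.25 to -1.54).

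Genes of phagocytic microglia that passed were those of lipid handling. Lpl, lipoprotein lipase, had 34.9, 46.0 and 9.89 CPM in SH glia and 84.4, 109 and 176 CPM in KA glia, while its neuron libraries went from 41.9 to 57.6 CPM in SH to 25.4 to 41.2 CPM in KA (shift -2.80, SE 0.51, FDR 0.0588). Ch25h, cholesterol 25-hydroxylase, which makes an antiviral oxysterol, had 0.628 to 2.24 CPM in SH glia and 13.6, 43.4 and 83.8 CPM in KA glia (shift -3.90, SE 0.66, FDR 0.0485). Both calls were kept without any 1 pool. Of 18 genes of this list, 2 passed and 14 had a shift below 0, with a median of -0.33. Spp1 (osteopontin) missed the threshold (-2.42, FDR 0.285) although its levels were 159.6 to 786 CPM in KA glia against 3.65 to 22.2 CPM in SH glia. KA neurons had 6.66 to 35.7 CPM and SH neurons 1.45 to 2.99 CPM. Il1r1, the receptor of interleukin-1, which was in no list, shifted by -1.92 (SE 0.40, FDR 0.124), from 9.29 to 16.4 CPM in SH glia to 24.6 to 32.0 CPM in KA glia, and lost its call without SH pool 3, KA pool 2 or KA pool 3. Blood leukocyte markers had a median shift of -1.04 over 6 tested genes, 4 of them below 0 and 0 called; S100a8 was not tested, and Ly6c2 and S100a9 were each at 0 in 1 library. This median ranged from -1.86 without a filter on low counts to -0.03 with at least 10 counts in every library, and was -0.60 without SH pool 3. Their sum was 72.8 to 82.2 CPM in SH glia and 81.5 to 117 CPM in KA glia, overlapping, and its part in the glial increases was not tested.

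In 11 of the genes shifted towards glia, KA neurons lay below SH neurons. Fam84b had 32.4, 28.9 and 43.7 CPM in SH neurons and 13.7, 7.88 and 10.0 CPM in KA neurons, with overlapping glia (shift -2.12, SE 0.37, FDR 0.0485, lost without KA pool 2 at -1.91). Of its exonic bases 41.7% are shared with 9930014A18Rik on the other strand. Cxcl12, a chemokine that neurons and vessels also make, had 73.9, 30 and 47.9 CPM in SH neurons and 14.6, 18.5 and 9.36 CPM in KA neurons, and 35.6 to 47.6 CPM in SH glia and 40.2 to 52.4 CPM in KA glia (shift -1.85, SE 0.37, FDR 0.0988, lost without SH pool 3 at -1.88 or KA pool 1 at -1.99). Add3, the cytoskeletal protein adducin 3, went from 82.9 to 124 CPM to 41.3 to 54.9 CPM in neurons (shift -1.77, SE 0.35, FDR 0.0918), and Cd34, a sialomucin, from 49.4 to 74.9 CPM to 12.7 to 25.6 CPM (shift -1.25, SE 0.27, FDR 0.145). Calls were lost for Add3 without KA pool 1 or 2 and for Cd34 without SH pool 2 or 3 or KA pool 1 or 2. In 4 genes the neurons were lower and the glia higher without overlap, a pattern of 24 genes in all. Besides Lpl they were Strip2, a subunit of a phosphatase and kinase complex, Iigp1 and Cmpk2. Iigp1 fell short of 10 counts in at least 1 library. Strip2 (ENSMUSG00000039629, chromosome 6 from 29917012 to 29959681) had 47.4, 45.6 and 59.8 CPM in SH neurons and 32.4, 14.2 and 17.3 CPM in KA neurons, and 11.4, 14.1 and 6.39 CPM in SH glia and 25.2, 32.7 and 60.8 CPM in KA glia (shift -3.22, SE 0.52, FDR 0.0391). Cmpk2, a mitochondrial nucleotide kinase, had 15.3 to 16.7 CPM in SH neurons and 7.33 to 8.75 CPM in KA neurons, and 6.30 to 9.49 CPM in SH glia and 13.5 to 17.2 CPM in KA glia (shift -2.03, SE 0.37, FDR 0.0588, lost without KA pool 1 at -2.11 or 2 at -1.93).

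**Figure D5:**
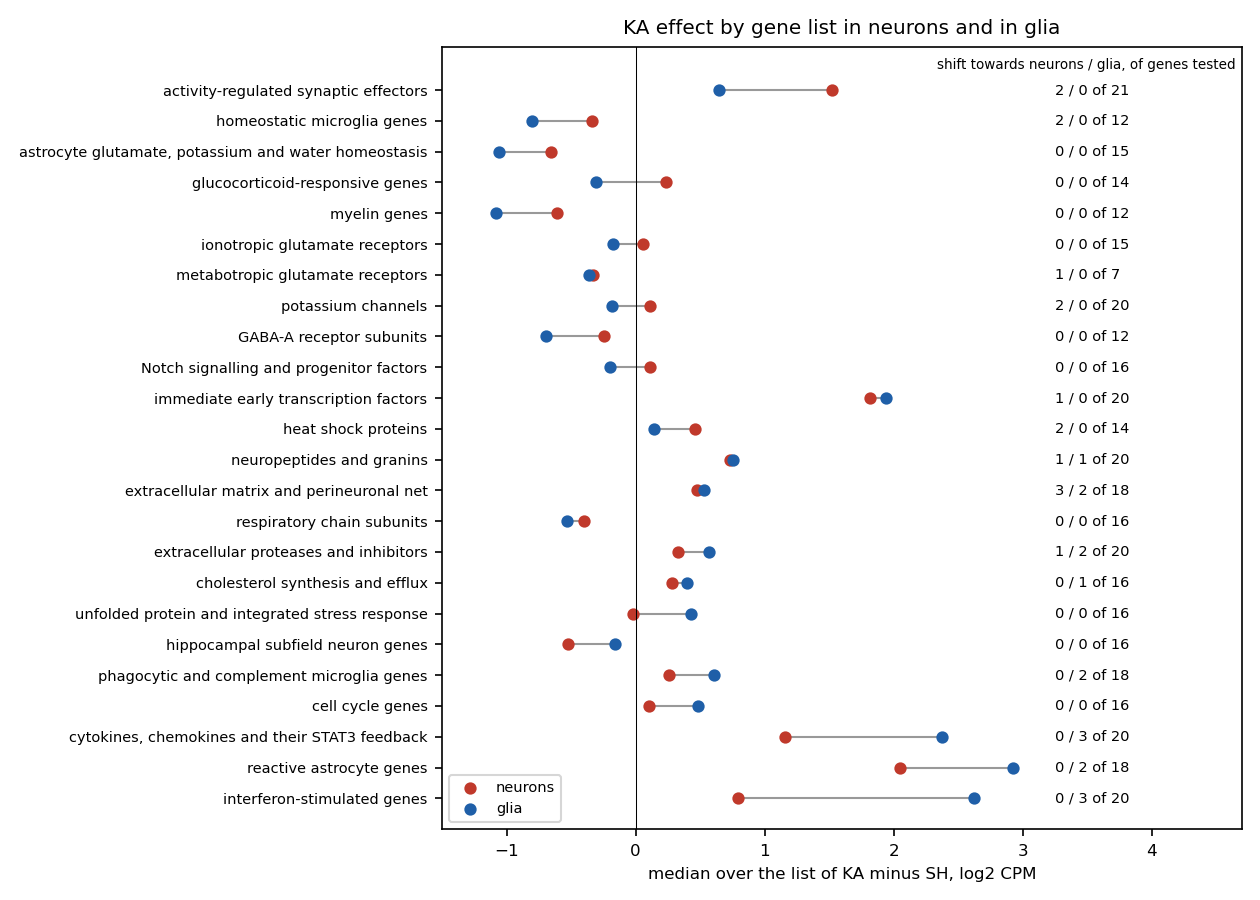
Median change from SH to KA in log2 CPM over the tested genes of 24 lists, in neurons (red) and glia (blue), ordered by the median shift, with the number of genes that shifted towards neurons and towards glia. Interferon-stimulated genes, at 0.80 in neurons and 2.63 in glia, stand at the bottom, and activity-regulated synaptic effectors, at 1.52 and 0.65, at the top.

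Several functions had no called gene. As calls were 0.314% and 0.157% of all genes tested, 0 calls in a list this short says little about the function. Of 15 ionotropic glutamate receptor genes, which include those for the kainate receptors, 0 passed, with a median shift of 0.38, and Grik4, a kainate receptor subunit, had a shift of 0.45 (SE 0.33). Likewise 0 of 12 GABA-A receptor genes passed (median 0.31, but -0.04 without SH pool 2, -0.12 without KA pool 1 and 0.73 without the low-input pools), 0 of 15 genes of astrocytic glutamate, potassium and water homeostasis (0.61, but -0.03 without the low-input pools), 0 of 12 myelin genes (0.50, but -0.29 without them), 0 of 16 respiratory chain genes (0.02), 0 of 16 cell cycle genes (-0.44), 0 of 16 genes of the unfolded protein response (-0.27), 0 of 14 glucocorticoid-responsive genes (0.55), 0 of 16 Notch and progenitor genes (0.31) and 0 of 16 genes of hippocampal subfields (-0.30). Of 16 cholesterol genes only Ch25h passed (median -0.03). In the homeostasis list, Slc1a2, the main glutamate transporter of astrocytes, had 413, 396 and 544 CPM in SH glia and 397, 154 and 219 CPM in KA glia (shift 1.5, FDR 0.483). Kcnj16, a potassium channel subunit, had a shift of 1.64 (FDR 0.292). Among subfield genes, Tdo2, which marks dentate granule cells, had 16.3 to 22.3 CPM in SH neurons and 2.71 to 11.2 CPM in KA neurons (shift -1.85, FDR 0.338). A value that misses the threshold here does not show equal effects, since SEs of single genes were often 0.3 to 0.7.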

How the data were processed

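Pooled, NeuN-sorted nuclei of 3 KA and 3 SH pools gave 12 mRNAseq libraries. The authors trimmed reads (Trim Galore 0.4.3 per the labels), aligned them to mm10 with Rsubread and counted uniquely mapped reads per gene with featureCounts at default settings and GENCODE M16, without strand, leaving out reads over more than 1 gene. The deposited values are raw counts, 7769400 to 40364768 per library. Pool size follows the replicate number, so that they cannot be told apart. The paper reports mRNAseq on a NextSeq with shorter single reads or on a HiSeq with longer paired reads. Which platform each library had is not given in the sources used here, and its part in the differences between libraries was not tested.

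Symbols and positions were taken from GENCODE M21 (53274 of 53379 genes). Genes passing filterByExpr were fitted with edgeR 4.0.16 (R 4.3.3, glmQLFit with legacy=TRUE, TMM) with terms for pool, cell type, and cell type by treatment, and p values were adjusted by Benjamini-Hochberg over 37598 genes (FDR 0.25, the threshold of the study, which tested each cell type separately). The SE was derived from logFC and F. Changes per cell type are differences of mean log2 CPM (prior count 2) without a test, so they need not subtract exactly to the fitted shift. Deviations of within-pool differences correlated across genes by 0.129, 0.170 and 0.327 between KA and SH pools 1, 2 and 3. All were above 0.1, so the replicate block is given as a pairing read from the data.

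Named genes are the 15 smallest p values in each direction among calls whose pool differences do not overlap (Gm and Rik names were passed over), calls within 32 lists (8 of markers, 24 of functions) and up to 3 further genes per list; Cd1d2, Fos, Grik4 and other calls were chosen after their values were seen. The members and lists were chosen with earlier results of these data known. Alternatives were limma 3.58.1, DESeq2 1.42.0, edgeR without legacy, other blocks, scalings, filters and gene sets, and each pool left out. Promoter windows are from RefSeq on GRCm38.p6, with motifs searched on both strands. Figures were drawn with matplotlib 3.10.9.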

Additional observations from a re-analysis of the deposited data

Results flagged for a closer look

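The test of the difference between the cell types flagged the 118 genes shifted towards neurons and the 59 shifted towards glia. Within them, 12 genes had KA and SH libraries that separated without overlap in opposite directions in neurons and glia. The 4 that were lower in KA neurons and higher in KA glia were Iigp1 (shift -3.83), Strip2 (-3.22), Lpl (-2.80) and Cmpk2 (-2.03). Iigp1 fell short of 10 counts in at least 1 library. The 8 that were higher in KA neurons and lower in KA glia were 1700071M16Rik (2.93), Abca9 (2.88), Chst5 (2.46), Hsd11b1 (2.10), Bmp2 (1.91), Trib2 (1.90), Jup (1.80) and Kcnk1 (1.33). The first of these overlaps Pla2g7 on the other strand. The counts are without strand and leave out reads over more than 1 gene, so reads of the shared exonic part are left out of both. With groups of 3 libraries, no search for outlying single values was made.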

How the results depend on the processing

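The number of genes depended on the design. Signs could hardly change, since the alternatives reused the same libraries and all called genes but Trh had pool differences without overlap. Each of the 51 called and named genes kept its sign in every alternative run, and 19 of them kept their call in all 6 fits without 1 pool. Of all called genes, 15 of 118 and 11 of 59 did, and 6 and 0 kept it in none. All 177 kept it with the replicate block, a pairing that was read from the same data. For genes shifted towards neurons, the count of 118, from a fit with a block per pool, became 0 without any block, 871 with a replicate block across treatments added, 462 with DESeq2, 70 without a filter on low counts, 390 with at least 10 counts in every library, 241 for protein-coding genes, 51 without the pools that hold a low-input library, 18 without both pools of replicate 3 (chosen after seeing the data) and 22 at an FDR of 0.05. For genes shifted towards glia, the count of 59 became 0 without any block, 571 with the replicate block added, 199 with DESeq2, 105 with library sizes only, 151 with at least 10 counts in every library, 3 without both pools of replicate 3 and 11 at an FDR of 0.05, and stayed within 1.5 times for protein-coding genes (88), RLE factors (58), autosomes (54), without the low-input pools (53) and without a filter (43). Leaving out 1 pool gave 33 (KA pool 2) to 180 (SH pool 2) genes towards neurons and 25 (SH pool 3) to 112 (SH pool 2) towards glia. Fits without pools have fewer samples, and the causes of the other changes were not tested. limma gave 174 and 86, and edgeR without legacy 165 and 86. Library sizes in place of TMM moved the median of all genes by -0.14. Of the 32 lists, 19 kept the sign of their median in every alternative run and 13 did not. With 3 pools per treatment, values of genes below about 1 CPM, such as Ucn2 in SH glia, rest on few counts. The part of depth and RNA input in them was not tested.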
